A study of Mus musculus with 32 samples.

Results

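Nuclear RNA of myenteric neurons of the mouse colon was compared between mice kept at the University of Bern and mice kept at the Francis Crick Institute. The comparison held 8 of the 32 libraries of the series, 4 from each facility, and was chosen by the column names of the deposited table (Bern_ColPos 1 to 4 and Crick_ColPos 1 to 4), with no gene selected beforehand. All mice were C57BL/6 and specific pathogen-free, and no genotype, substrain, age or sex is given in the labels. All received AAV9-CaMKII-EGFPKASH intravenously, a viral vector in which the CaMKII promoter drives a green fluorescent protein anchored to the nuclear envelope. The outer muscle layer with the attached myenteric plexus was then peeled from the gut and homogenised, and EGFP-positive nuclei were sorted as neuronal. The neurons measured are therefore those that the virus reached and in which that promoter was active. EGFP-negative nuclei and the small intestine made up the other groups of the series. Facility includes everything that differed between both sites, from diet and microbiota to breeding and handling, and these cannot be told apart. Nothing in the labels says that the 4 libraries of a group came from separate mice. Xist levels, given below, show both sexes in each group, so the 4 did not all come from 1 mouse. The p-values measure the spread between these samples, which may be in part technical and includes any difference between the sexes.

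Myenteric neurons form the ganglia between both muscle layers of the gut and drive its peristaltic movement. They are excitatory cholinergic motor neurons, inhibitory nitrergic motor neurons, interneurons and sensory neurons, and they express the neurotrophic receptor Ret throughout life. Immediate early genes such as Egr1 and the Fos and Jun families are transcribed within minutes of stimulation or depolarisation, without new protein synthesis, and their RNA is short-lived. Nuclear RNA reports recent transcription more directly than whole-cell RNA and is rich in retained non-coding RNAs such as Malat1.

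The colon neuronal libraries from Bern held fewer genes with a count than those from Crick. Total expected counts were 2420837, 3694324, 3900979 and 3589464 in Bern_ColPos 1 to 4 and 3921688, 4566059, 3788120 and 6828330 in Crick_ColPos 1 to 4. Genes with at least 1 count ranged from 17644 to 20453 in Bern and from 25675 to 26128 in Crick, and at equal depth from 17644 to 19766 and from 22982 to 24455. The share of counts from mitochondrially encoded genes was 0.51% ± 0.0733 in Bern and 1.09% ± 0.236 in Crick (SD, n = 4 each), a gap mostly in the rRNA mt-Rnr2, given below. The share of protein-coding genes was 80.7% ± 1.7 and 74.4% ± 0.842. In each of these shares and gene numbers the facilities did not overlap (two-sided exact permutation test, p = 0.0286, the smallest that 4 against 4 allows; adjusted p = 0.0367 over 9 library measures). Replicates resembled each other less in Bern than in Crick: across genes, Pearson's r of log2 CPM (counts scaled to the library total) between pairs of libraries was 0.723 to 0.802 in Bern and 0.831 to 0.967 in Crick, and no pair held identical values. Bern_ColPos 1 held the fewest counts and the fewest genes. Xist was at 5253 to 16058 CPM in all libraries numbered 3 and 4 from Bern and 4 from Crick, and at 0 to 63 CPM in the others, so the mix of sexes was not the same in both facilities.

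Neuronal markers checked the label. The 20 pan-neuronal markers summed to 5547 to 6959 CPM in the Bern libraries and to 4230 to 4650 CPM in the Crick libraries. Smooth muscle markers summed to 581 to 1464 and 605 to 711 CPM, fibroblast markers to 284 to 532 and 278 to 347 CPM, and glial markers to 13.7 to 26.9 and 11.4 to 25.8 CPM. Summed epithelial markers were lower in Bern without overlap (15.2 to 18 against 31.9 to 74 CPM). Macrophage markers summed to 10.8 to 24.2 and 15.1 to 33.5 CPM, markers of interstitial cells of Cajal to 0.759 to 23.2 and 8.58 to 39.9 CPM, endothelial markers to 9.76 to 43.7 and 24.3 to 48.4 CPM, and lymphocyte markers to 0.528 to 7.78 and 2.64 to 20.9 CPM. The T cell markers Cd3d and Trac, the epithelial marker Olfm4 and the mesothelial marker Upk1b were at 0 in all 8 libraries. In bulk nuclei a smaller share of a neuron type and less RNA per nucleus cannot be told apart.

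Of 17419 genes tested, 538 (3.09%) differed between the facilities at an adjusted p under 0.05 in edgeR's quasi-likelihood test with Benjamini-Hochberg adjustment. Of these, 330 (1.89%) were higher in Bern and 208 (1.19%) were lower. The 4 Bern libraries did not overlap the 4 Crick libraries in 465 of the 538, against 12.7% of all genes tested. The number of calls leaned on single libraries. Without Crick_ColPos 1, 2 or 3 it was 82, 59 and 133, without Crick_ColPos 4 it was 750, and without Bern_ColPos 1 to 4 it was 289, 515, 364 and 1149. Leaving out 1 small intestinal library, which shares the estimate of spread, gave 333 to 661 calls, and the 8 colon libraries fitted alone gave 119 (92 higher, 27 lower). With all 32 libraries in 1 fit, 83 genes were higher and 81 lower. In simulated counts with known changes, the same test recovered 2% of genes changed 2-fold, 26% at 4-fold, 58% at 8-fold and 92% at 16-fold, 50 genes each. Fewer genes were changed there than were called here, which makes the adjusted threshold stricter, and all groups shared the same base levels. These shares therefore do not carry over to the calls here, some of which lay near 2-fold. Smaller differences can still have been missed.

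**Figure D1:**
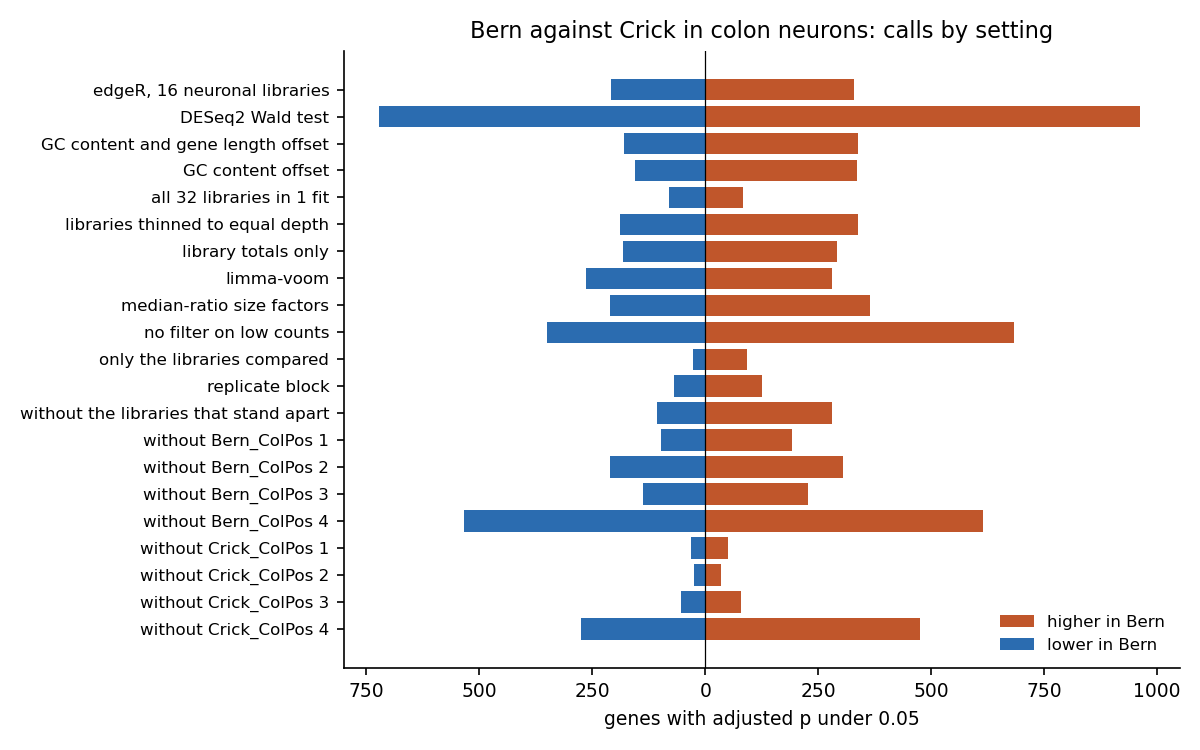
Number of genes higher (right) and lower (left) in Bern at an adjusted p under 0.05, for the 16 neuronal libraries fitted with edgeR (top) and for each alternative. The count runs from 59 without Crick_ColPos 2 to 1683 with DESeq2.

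Of the 538 genes, 35 were called under all 28 alternatives, left-out libraries included, 23 of them higher and 12 lower in Bern. In 34 of the 35 the facilities did not overlap, and 11 are predicted genes or pseudogenes.

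Many of the genes named below were not called in a pair of these fits, with the direction unchanged. With all 32 libraries in 1 fit, the edgeR adjusted p was 0.446 for Ret, 0.441 for Snap25, 0.339 for Hcn3, 0.216 for Cadm3, 0.198 for Tbx3, 0.195 for Chrnb4 and 0.193 for Syn1. In the same fit Adat3, Bnc2, Ccdc112, Cdh9, Ece1, Erc2, Grin1, Junb, Negr1 and Rims2 (0.104 to 0.164) did not pass, nor did Ano1, Card9, Ier3, L1cam, Lemd2, Lgr5, Nlrx1, Nr1d2, Peg13, Penk, Plpp2 and mt-Rnr2 (0.0523 to 0.0931). With the 8 colon libraries alone, the calls of Ahnak, Bnc2, Card9, Ece1, Erc2, Foxp4, Hcn3, Ier3, Ifi27, Junb, Kiz, Lemd2, Nab2, Nlrx1, Nr1d2, Peg13, Plpp2, Rims2, Snap25, Tbx3, Vamp2 and Zscan12 were lost (0.0509 to 0.118).

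Among genes named by fold change as higher in Bern, Egr1, the immediate early transcription factor of zinc finger type, had the largest difference. That rule passed over predicted genes, identifiers without a symbol and markers of other cell types. Egr1 lies at chr18:34859823-34864984 (GRCm38, plus strand). Its level was 1730, 454, 543 and 109 CPM in Bern_ColPos 1 to 4 and 43.7, 37.6, 54.6 and 23.7 CPM in Crick_ColPos 1 to 4. Every Bern library lay above every Crick library, which was a condition for genes named by fold change or p. The Bern libraries themselves differed widely, with library 1 highest and library 4 lowest. The log2 fold change was 4.15 ± 0.70 (SE; edgeR adjusted p = 0.00542, and at most 0.0344 under any setting).

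Egr1 was one of 3 genes of the immediate early list past the threshold, a list that also holds induced regulators such as Nab2. Nab2, the corepressor that EGR1 induces and that restrains it, was at 21.5, 61.8, 147 and 59.6 CPM in Bern and at 8.17, 5.99, 10.7 and 19.3 CPM in Crick. These ranges did not overlap, but Bern 1 and Crick 4 lay close to each other (log2 fold change 2.71 ± 0.56, edgeR adjusted p = 0.0151). Junb, an AP-1 subunit, was at 54.6, 12.2, 24.5 and 3.43 CPM in Bern and at 3.84, 2.68, 3.34 and 1.86 CPM in Crick, and its lowest Bern library fell inside the Crick range (3.01 ± 0.75, adjusted p = 0.0314). The Nab2 call was lost without Bern_ColPos 3 or Crick_ColPos 1, 2 or 3 (edgeR adjusted p of 0.0514 to 0.0802). The Junb call was lost without Bern_ColPos 1 or any 1 Crick library (adjusted p of 0.0561 to 0.118), and also with an offset for GC content (adjusted p = 0.131).

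The other genes of the immediate early list mostly pointed the same way without passing. Of 19 tested, 3 were higher, none was lower, and 17 had a log2 fold change above 0, with a median of 1.23. Over all 17419 genes tested, 1.89% were higher and 1.19% lower, 8876 were above 0, and the median was 0.02. The list's median transcript GC content, 55.6%, lay in the highest quartile of GC content, whose median log2 fold change was 0.65. With an offset for GC content the list median was 0.82, beside 0.07 over all genes. The 25 listed genes summed to 2651, 950, 1176 and 633 CPM in Bern and to 313, 277, 376 and 283 CPM in Crick. Fos, the partner of JUN proteins in AP-1, was at 122, 29.7, 14.2 and 10.3 CPM in Bern and 19.2, 14.7, 20 and 7.01 CPM in Crick, so that Bern 1 stood far above and the other 3 lay within or near the Crick range (1.53 ± 0.75, edgeR adjusted p = 0.252). Npas4, a transcription factor induced by calcium entry in neurons, was at 110, 58.1, 82.2 and 102 CPM in Bern and 30.7, 24.6, 55.8 and 57.9 CPM in Crick (1.06 ± 0.43, adjusted p = 0.16). Dusp1, which dephosphorylates MAP kinases, had a log2 fold change of 1.62 ± 0.56 (adjusted p = 0.101). Nr4a1 and Jun lay within the spread between libraries (0.19 ± 0.59 and 0.89 ± 0.75). Without Bern_ColPos 1, where the summed level was highest, 20 members were tested and 2 were higher, with a median of 0.75.

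**Figure D2:**
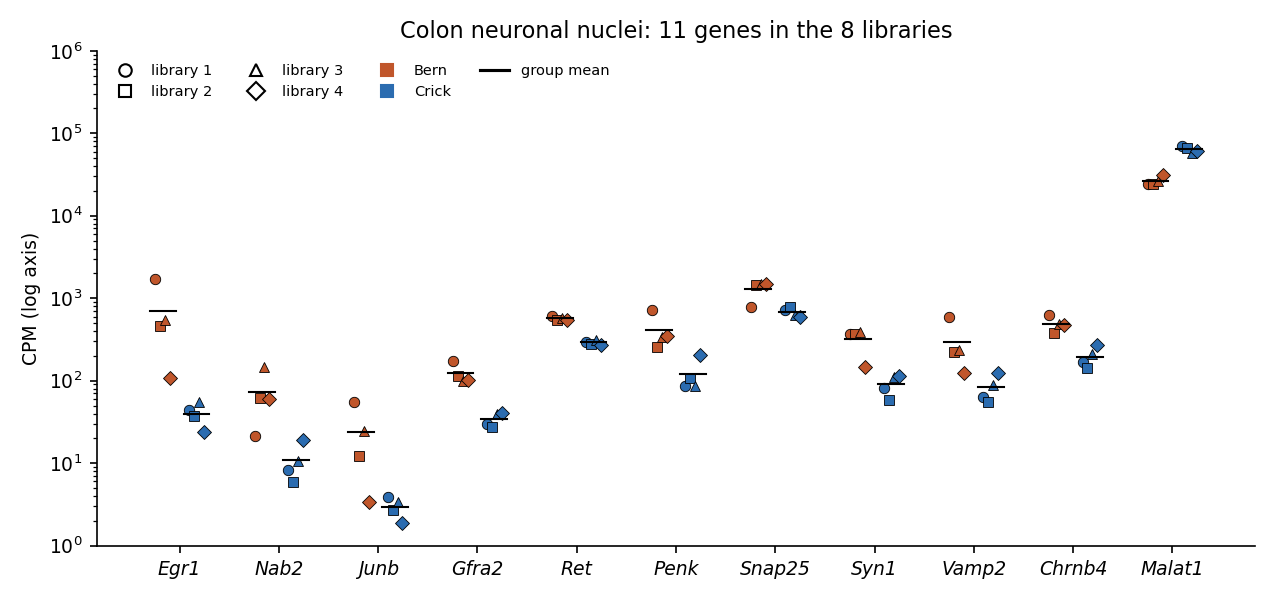
Level in CPM (log axis) of 11 genes in each colon neuronal library, Bern in orange and Crick in blue, with 1 symbol for each library number and a line at the group mean. Egr1, Gfra2, Ret and Malat1 separate the facilities in every library, whereas Junb and Vamp2 overlap.

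Genes that mark enteric neuron lineage and type were higher in Bern where edgeR called them. Of the 14 members tested of the RET and endothelin signalling list, 3 were higher and none was lower (median 0.61). DESeq2 called 3 higher and 1 lower. Over all genes tested in edgeR, 1.89% were higher and 1.19% lower. Gfra2, the co-receptor through which neurturin signals to RET (chr14:70890120-70979838, plus strand), was at 175, 115, 99.9 and 103 CPM in Bern and at 29.8, 27.3, 39.3 and 40.2 CPM in Crick. The lowest Bern library was above the highest Crick library, and the log2 fold change of 1.85 ± 0.32 passed under every setting (edgeR adjusted p = 0.0058, at most 0.0461). Ret itself was at 617, 548, 568 and 540 CPM in Bern and 296, 282, 313 and 274 CPM in Crick. Both groups were tight and apart (0.96 ± 0.21, adjusted p = 0.0208). Ece1, which processes endothelin precursors, was at 275 to 463 CPM in Bern and 88.8 to 224 CPM in Crick (1.20 ± 0.32, adjusted p = 0.0447). Gfra1, the GDNF co-receptor, was at 2.73 to 21.4 CPM in Bern and 29.3 to 38.2 CPM in Crick, also without overlap, but did not pass (-1.68 ± 0.49, adjusted p = 0.0584). The call of Ret was lost without Crick_ColPos 1, 2 or 3 (adjusted p of 0.0585 to 0.0876) and with all 32 libraries in 1 fit (0.446). That of Ece1 was lost without Bern_ColPos 1, 2 or 3 or Crick_ColPos 1, 2 or 3 (0.0589 to 0.169) and with the GC content offset (0.0609).

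Among 16 tested transcription factors of enteric neurons, 3 were higher, none was lower, and the median was 0.64. The shares over all genes tested were 1.89% higher and 1.19% lower. Klf7, a zinc finger factor of neurite growth, was at 509, 582, 509 and 548 CPM in Bern and 284, 225, 255 and 301 CPM in Crick (1.01 ± 0.22, edgeR adjusted p = 0.0199). The T-box factor Tbx3 was at 245 to 279 CPM in Bern and 95.6 to 168 CPM in Crick (0.99 ± 0.26, adjusted p = 0.04). The zinc finger gene Bnc2 was at 289 to 664 and 202 to 290 CPM, ranges that touch (0.94 ± 0.25, adjusted p = 0.0391). Hand2, a factor of neuronal differentiation in the gut, separated the facilities in every library but did not pass (0.99 ± 0.34, adjusted p = 0.0958). The Klf7 call was lost without Crick_ColPos 1, 2 or 3 (adjusted p of 0.0652 to 0.0953). The Tbx3 and Bnc2 calls were lost without any 1 of these 3, without Bern_ColPos 1 or 2, and for Tbx3 also without Bern_ColPos 3 (0.0584 to 0.164), and Tbx3 did not pass with the GC content offset (0.101).

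Of 8 cholinergic and tachykinin genes tested, 1 was higher and none was lower, with a median of 0.21. Over all genes tested, 1.89% were higher and 1.19% lower. Penk, the precursor of the enkephalins that excitatory motor neurons and interneurons release, was at 711, 258, 337 and 349 CPM in Bern and at 87.2, 108, 86.6 and 203 CPM in Crick. No Bern library reached down to the Crick range, and the log2 fold change was 1.77 ± 0.35 (edgeR adjusted p = 0.0114). It did not pass without Crick_ColPos 1, 2 or 3 (0.0525 to 0.0605) or with all 32 libraries in 1 fit (0.0757). Chat, which makes acetylcholine, was at 49.6 to 187 CPM in Bern and 85.1 to 148 CPM in Crick (0.17 ± 0.34, adjusted p = 0.817). Tac1, the substance P precursor, was at 372 to 481 and 165 to 435 CPM (0.65 ± 0.32, adjusted p = 0.26). Slc5a7, the choline transporter, lay lower in all Bern libraries (75.6 to 129 against 131 to 205 CPM) and did not pass either (-0.80 ± 0.28, adjusted p = 0.102).

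The inhibitory and sensory classes gave no call. Nos1, the neuronal nitric oxide synthase, was at 1491, 1678, 1852 and 1309 CPM in Bern and 788, 604, 1255 and 829 CPM in Crick. These did not overlap, yet the adjusted p was 0.0697 (0.86 ± 0.26). Vip was at 30.8 to 192 and 17.9 to 170 CPM (0.27 ± 0.56, adjusted p = 0.825). The 7 nitrergic genes tested had a median of 0.32 and the 7 sensory-type genes a median of 0.94, and none passed in edgeR (3 and 1 had an unadjusted p under 0.05), whereas DESeq2 called 3 of the nitrergic and 1 of the sensory-type list. Sst, the somatostatin gene, was at 138 to 332 CPM in Bern and 62.2 to 84.8 CPM in Crick (1.40 ± 0.42, adjusted p = 0.0656).

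**Figure D3:**
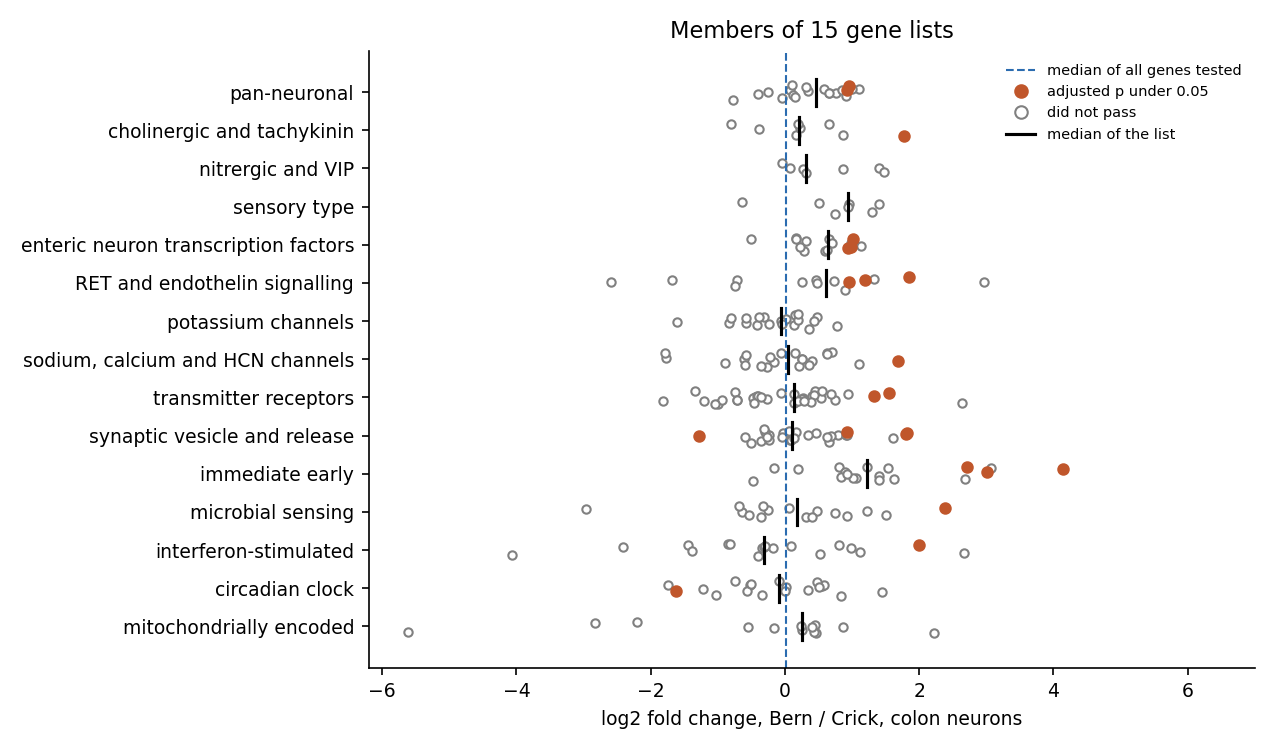
Log2 fold change (Bern over Crick) of each tested member of 15 gene lists, filled where the adjusted p was under 0.05, with the list's median as a black bar and the median of all genes tested, 0.02, as a dashed line. The immediate early list has the highest median, 1.23.

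Of 20 pan-neuronal markers, 2 were higher, none was lower, and the median was 0.46. For this list and the next, the shares over all genes tested were 1.89% higher and 1.19% lower. Snap25, the membrane protein of the synaptic fusion complex, was at 793, 1452, 1494 and 1480 CPM in Bern and at 727, 790, 628 and 596 CPM in Crick. Bern 1 lay just above the Crick range and the other Bern libraries well above it (0.93 ± 0.23, edgeR adjusted p = 0.0329). Ret was the other. With the GC content offset 5 passed, again all higher. Of 28 genes of the synaptic vesicle and its release, 3 were higher and 1 was lower (median 0.11). Syn1, which tethers vesicles to actin, was at 372, 366, 394 and 145 CPM in Bern and 80.5, 57.6, 110 and 113 CPM in Crick, with Bern 4 well below the other Bern libraries but above all of Crick (1.82 ± 0.34, adjusted p = 0.00858). Vamp2, the vesicle partner of SNAP25, was at 593, 223, 233 and 123 CPM in Bern and 63.2, 55.9, 88.7 and 125 CPM in Crick, so that Bern 4 lay just below Crick 4 (1.81 ± 0.38, adjusted p = 0.0166). Rims2, a scaffold of the active zone, was the one lower in Bern, at 49.6, 157, 93.8 and 136 CPM against 287, 292, 241 and 243 CPM (-1.28 ± 0.31, adjusted p = 0.0308). Syn1 was not called without Crick_ColPos 2 (0.0501) or with all 32 libraries in 1 fit (0.193). Vamp2 and Rims2 were not called without Bern_ColPos 1 or Crick_ColPos 1, 2 or 3, nor Rims2 without Bern_ColPos 3, nor Snap25 without Bern_ColPos 2 or 3 or any 1 Crick library (0.0523 to 0.108).

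Receptor and channel genes gave 3 calls, beside 3.09% of all genes tested. Of 35 transmitter receptor genes, 2 were higher and none was lower in edgeR (median 0.13), whereas DESeq2 called 3 higher and 3 lower. Chrnb4, a subunit of the ganglionic nicotinic receptor, was at 629, 378, 487 and 477 CPM in Bern and 167, 141, 209 and 268 CPM in Crick, without overlap (1.33 ± 0.29, edgeR adjusted p = 0.0208). Grin1, the obligatory NMDA receptor subunit, was at 446, 394, 349 and 198 CPM in Bern and 116, 79.3, 172 and 104 CPM in Crick (1.55 ± 0.34, adjusted p = 0.0202). Hcn3, a pacemaker channel, was the single call of 22 sodium, calcium and HCN channel genes (49.1 to 145 against 23.3 to 50.8 CPM, 1.69 ± 0.40, adjusted p = 0.0261). Of these 22, DESeq2 called 1 higher and 1 lower. None of 20 potassium channel genes, 25 axon guidance genes, 24 cytoskeletal genes or 21 RNA-binding protein genes passed, with medians of -0.05, -0.01, 0.12 and 0.04. An unadjusted p under 0.05 was found for 2, 7, 5 and 5 of them, and DESeq2 called 0, 1, 1 and 2. The Chrnb4 call was lost without Bern_ColPos 1 or Crick_ColPos 1, 2 or 3 (0.0509 to 0.1), the Grin1 call without Crick_ColPos 1 or 2 (0.08 and 0.0953), and the Hcn3 call without Bern_ColPos 1 or Crick_ColPos 1, 2 or 3 (0.0631 to 0.115). Grin1 and Hcn3 did not pass with the GC content offset (0.0812 and 0.0608).

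Several genes higher in Bern under every setting serve lysosomes, autophagy and protein turnover; these were singled out after their values were seen and form no tested list. Tpp1, a lysosomal peptidase, was at 337, 225, 322 and 232 CPM in Bern and 106, 83.8, 105 and 81.8 CPM in Crick (1.57 ± 0.25, edgeR adjusted p = 0.00343). Atp13a2, a lysosomal polyamine transporter, was at 441, 365, 378 and 230 CPM in Bern and 61.7, 56.8, 106 and 113 CPM in Crick (2.07 ± 0.34, adjusted p = 0.00413). Rab7, the GTPase of late endosomes, was at 162, 170, 310 and 135 CPM in Bern and 45.9, 45.6, 55.8 and 56.6 CPM in Crick (1.93 ± 0.35, adjusted p = 0.00704). In all 3 the lowest Bern library was above the highest Crick library, which the naming rule required of Tpp1 and Atp13a2. Psme1, a subunit of the proteasome activator PA28, was at 98.3, 48.9, 79.7 and 58.6 CPM against 12.5, 8.26, 11.2 and 11.6 CPM (2.71 ± 0.43, adjusted p = 0.00343). Capns1, the regulatory subunit of calpain proteases, was at 324, 304, 398 and 379 CPM against 59.6, 51, 75.6 and 110 CPM (2.24 ± 0.30, adjusted p = 0.000482, and at most 0.00686 under any setting). Calcoco1, an autophagy receptor, had a log2 fold change of 2.52 ± 0.45 and Rbck1, a ubiquitin ligase subunit, one of 2.14 ± 0.39.

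Csf2ra encodes the alpha chain of the receptor for the cytokine GM-CSF. It was at 85.1, 158, 149 and 92.1 CPM in Bern and 12, 11.1, 21.7 and 18.6 CPM in Crick, without overlap, as the naming rule required (2.93 ± 0.44, edgeR adjusted p = 0.00259, at most 0.0229 under any setting). Macrophages carry this receptor. Their markers gave no call (8 tested) and summed to 10.8 to 24.2 CPM in Bern and 15.1 to 33.5 CPM in Crick. Which cells the Csf2ra RNA came from was not tested. Swi5, a factor of homologous recombination, and Sync, an intermediate filament protein of muscle, had log2 fold changes of 1.90 ± 0.30 and 2.06 ± 0.33. Smooth muscle markers as a list gave no call (12 tested, median 0.46), and the source of the Sync RNA was not tested either. Lynx1, which binds nicotinic receptors and damps them, was at 69.1, 72.9, 45 and 60.7 CPM in Bern and 15.9, 13.2, 21.7 and 8.73 CPM in Crick (2.06 ± 0.37, adjusted p = 0.00704).

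Promoters were searched for the motifs of the factors that drive or follow immediate early genes: CREB, the serum response factor, the EGR proteins and AP-1. RefSeq windows of 300 bases (250 before to 50 after the start, GRCm38.p6) matched 10910 tested genes, 206 of the 330 higher and 124 of the 208 lower ones. The cyclic AMP response element TGACGTCA, searched on both strands like the rest, was in 3.88% of the higher, 0.806% of the lower and 3.23% of the tested windows, and in 1.88% of all 27025 promoters. The EGR site GCGTGGGCG was in 0.485% of the higher, none of the lower and 1.18% of the tested windows. The AP-1 site TGANTCA was in 4.85%, 7.26% and 4.82%, and the GC box GGGCGG in 65%, 59.7% and 62.4%. Csf2ra and Syn1, both named here, are among the 8 higher genes whose window holds the response element. The stretches upstream of their starts, chr19:61228430-61228668 and chrX:20921005-20921168, are shown on their minus strand as 2 examples, 5′ to 3′, with the element in capitals, 92 and 159 bases before the RefSeq start.
Csf2ra: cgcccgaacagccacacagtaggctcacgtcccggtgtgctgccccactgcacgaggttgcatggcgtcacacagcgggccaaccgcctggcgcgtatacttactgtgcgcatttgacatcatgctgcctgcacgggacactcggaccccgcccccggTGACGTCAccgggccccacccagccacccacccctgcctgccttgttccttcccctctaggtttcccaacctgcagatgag
Syn1: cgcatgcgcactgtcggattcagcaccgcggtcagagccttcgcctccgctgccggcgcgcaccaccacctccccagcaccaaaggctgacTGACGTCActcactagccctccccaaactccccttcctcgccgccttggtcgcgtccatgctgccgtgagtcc
A match describes letters in a window and is not a binding site.

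Among the other named genes with the largest fold differences, counts were low and single libraries stood out. Adat3, a subunit of the tRNA adenosine deaminase, was at 57.8, 17.7, 32.9 and 27.2 CPM in Bern and 0.48, 1.65, 1.67 and 5.15 CPM in Crick (3.87 ± 0.73, edgeR adjusted p = 0.00858). Plekhg3, an actin-linked exchange factor, was at 15.2, 17.7, 19.7 and 34 CPM against 2.88, 1.86, 2.15 and 2.57 CPM (3.18 ± 0.62, adjusted p = 0.0098). These calls were lost without Crick_ColPos 2 (0.0513 and 0.0622). In Foxp4 and Card9 the library Bern 3 (55.9 and 56.2 CPM) was far above the other Bern libraries, and in Ier3, Plpp2 and Lemd2 Bern 1 was (99.1, 160 and 109 CPM). Their calls were lost without those libraries (0.149, 0.0938, 0.296, 0.259 and 0.0979), as well as without Crick_ColPos 1 or 2 (0.0916 to 0.159). Foxp4, Ier3, Plpp2 and Lemd2 were also not called without Crick_ColPos 3 (0.0642 to 0.099), nor Ier3 and Plpp2 without Crick_ColPos 4 (0.0745 and 0.0732), nor Ier3 without Bern_ColPos 3 (0.0518).

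Malat1, the abundant nuclear-retained RNA, was lower in Bern. It lies at chr19:5795690-5802672 on the minus strand. Its level was 24386, 23918, 26494 and 31093 CPM in Bern_ColPos 1 to 4 and 70531, 66120, 58387 and 60266 CPM in Crick_ColPos 1 to 4. The groups were far apart and each was tight (log2 fold change -1.27 ± 0.17, edgeR adjusted p = 0.000482, at most 0.00705 under any setting). Malat1 took 2.80% ± 0.323 of all counts in Bern and 6.78% ± 0.586 in Crick (SD, n = 4 each; exact permutation p = 0.0286, the smallest possible). The predicted gene Gm37376, at chr19:5801941-5802393 on the plus strand, lies wholly inside Malat1 and was also lower (1792, 8988, 7769 and 8986 CPM against 22089, 20573, 23605 and 38495 CPM, -1.93 ± 0.35, adjusted p = 0.00704). Without strand, reads of both cannot be told apart. Of 10 nuclear-retained RNAs, Malat1 was the only one called lower, and Peg13 the only one called higher (1.28 ± 0.35, edgeR adjusted p = 0.0478). The list had a median of 0.38, with 7 of the 10 above 0. Over all genes tested, 1.89% were called higher and 1.19% lower, and the median was 0.02. The Peg13 call was lost without Bern_ColPos 2 or 3 or any 1 Crick library (0.0703 to 0.166). Neat1 and Meg3 lay within the spread (0.47 ± 0.29 and 0.28 ± 0.28).

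Pcm1, Akap9 and Hnrnpa2b1 were lower under every setting. Pcm1, the scaffold of centriolar satellites, was at 23.8, 64.9, 80.2 and 107 CPM in Bern and 379, 370, 294 and 201 CPM in Crick (-2.17 ± 0.41, edgeR adjusted p = 0.00858). Akap9, which anchors protein kinase A at the centrosome and Golgi, was at 226, 322, 245 and 422 CPM against 964, 1056, 783 and 602 CPM (-1.49 ± 0.28, adjusted p = 0.00858). Hnrnpa2b1, an RNA-binding protein of splicing and transport, was at 134, 174, 139 and 156 CPM against 391, 404, 335 and 271 CPM (-1.22 ± 0.23, adjusted p = 0.00858). That none of these overlapped between the facilities was a condition of their naming. Kiz, which stabilises the centrosome, was at 1.56 to 12.6 CPM against 34.3 to 47.1 CPM (-2.70 ± 0.52, adjusted p = 0.00901), and Ccdc112, a coiled-coil gene, at 3.51 to 11.4 CPM against 27.8 to 51.6 CPM (-2.74 ± 0.48, adjusted p = 0.00681). Kiz was not called with the 8 colon libraries alone (0.0599), nor Ccdc112 with all 32 libraries in 1 fit (0.104). In Pcm1 and Akap9 the Bern library closest to Crick was library 4, and the Crick library closest to Bern was library 4 as well.

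Many of the largest negative differences rested on near absence in Bern. Of the 538 calls, 40 had no count in any Bern library and 4 had none in any Crick library. The same numbers were not taken over all genes tested, so these describe the calls and are no trait of them. Swap70, a signalling protein of actin remodelling, was at 0, 0.486, 0 and 0.528 CPM in Bern and 8.41, 7.84, 7.39 and 18.2 CPM in Crick, and passed under every setting (edgeR adjusted p = 0.0147). Zscan12, a zinc finger gene, was at 0 to 1.32 CPM against 8.73 to 14.7 CPM (adjusted p = 0.00704). Smad7, the inhibitor of BMP and TGF-β signalling, was at 0 in all Bern libraries and at 2.16, 3.1, 1.67 and 7.72 CPM in Crick, at least 17.6-fold lower against a floor of 3 counts over the Bern group (0.208 CPM); such floors cover counting error only. Its call was lost without Crick_ColPos 2 (0.0605). Cdh9, a synaptic cadherin, was at 0 in Bern and 0.715 to 2.4 CPM in Crick, at least 7.03-fold lower, and was not called without Crick_ColPos 1, 2 or 3 (0.0576 to 0.0851). The Bern libraries also held fewer genes with a count at equal depth, as given above, and the part of this in single low genes was not tested.

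Markers of other cell types that were lower in Bern were at the same low levels. Ano1 and Gpr20, of interstitial cells of Cajal, were at 0 to 1.46 and 0 CPM in Bern and at 1.67 to 8.58 and 0 to 11.4 CPM in Crick (edgeR adjusted p = 0.0443 and 0.0389). Lgr5, of intestinal stem cells, was at 0 to 0.791 and 1 to 9.7 CPM (adjusted p = 0.0445). None of these calls held without Bern_ColPos 1 or 3 or Crick_ColPos 1 or 2 (0.074 to 0.137). Gpr20 in Crick came mostly from library 4 (11.4 CPM) and was not called without it (0.125). Kit, the defining receptor of interstitial cells, did not pass (0.13 ± 0.76, adjusted p = 0.942).

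A stretch of chromosome 4 held 5 genes lower in Bern. Between chr4:42033017-42589938 (GRCm38), 12 genes were tested, all with a log2 fold change below 0. Gm5859, an unprocessed pseudogene, was at 0 in all Bern libraries and at 16.8, 7.84, 17.9 and 37.1 CPM in Crick. Gm13301, a transcribed pseudogene, was at 0, 0.729, 0 and 0 CPM against 28.6, 20, 31.9 and 18.6 CPM, and Gm17167, a processed transcript that overlaps it, at 7.81, 6.32, 12.9 and 5.01 CPM against 41.8, 34.1, 52.2 and 65.4 CPM. Gm10600 was at 0 against 4.34 to 7.21 CPM, and Gm21093 at 0 against 1.65 to 10.3 CPM. The edgeR adjusted p of the 5 ran from 0.00034 to 0.0199. Gm5859, Gm13301, Gm17167 and Gm10600 were lower in Bern also in small intestinal neurons and in colon non-neuronal nuclei. The region holds near-identical gene copies, of which Gm3892 and Gm10593 carry the same values, so the assignment of reads among them is uncertain.

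Genes linked to C57BL/6 substrains gave no call among 7 tested in edgeR, where 3 had an unadjusted p under 0.05; DESeq2 called 2 and the GC content offset 1, all lower in Bern. Nnt, deleted in part in the 6J substrain, was at 1.56, 8.75, 0 and 8.18 CPM in Bern and 8.17, 7.43, 7.39 and 12.4 CPM in Crick (-0.92 ± 0.79, edgeR adjusted p = 0.537). Entpd4, one of a pair of neighbouring copies, was at 6.63, 19.7, 15.2 and 20.6 CPM in Bern and 39.4, 34.5, 42.7 and 51.4 CPM in Crick, without overlap (-1.43 ± 0.43, adjusted p = 0.0656). In small intestinal neurons Entpd4 and Entpd4b were lower in Bern (-1.99 and -1.91, adjusted p = 0.0337 and 0.0441). Crb1 was at 31.9 CPM in Bern 3 and at 0 in the other Bern libraries. The 5 sex-linked genes tested gave no call.

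Genes that sense microbes or answer their products gave 2 calls, beside 3.09% of all genes tested. Of 16 microbial sensing genes, Nlrx1, a mitochondrial NLR protein, was higher (21.5, 54, 112 and 62.8 CPM against 8.41, 8.26, 21 and 10.2 CPM, 2.39 ± 0.50, edgeR adjusted p = 0.0162) and none was lower (median 0.19). Of 18 interferon-stimulated genes, Ifi27 was higher (148, 94.6, 45 and 47.2 CPM against 12.7, 13.4, 25.8 and 31 CPM, 2.0 ± 0.42, adjusted p = 0.016) and none was lower (median -0.30). Both calls were lost without Crick_ColPos 1 or 2 (0.0787 to 0.084). Ahr, the aryl hydrocarbon receptor that senses dietary and microbial ligands, was at 86.2, 123, 192 and 106 CPM in Bern and 73, 74.7, 52.7 and 54.9 CPM in Crick. The ranges did not overlap, yet the difference did not pass (0.99 ± 0.52, adjusted p = 0.283). Its target genes Tiparp and Ahrr were not higher in Bern (-1.11 ± 0.49 and -0.94 ± 0.86), and none of the 7 genes of the pathway passed. None of 8 class I antigen presentation genes or 9 metabolite and bile acid receptor genes passed (medians 0.75 and 0.17; 5 and 1 with an unadjusted p under 0.05, and 3 and 1 called by DESeq2).

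Clock and stress genes gave 1 call, beside 3.09% of all genes tested. Of 19 clock genes, Nr1d2, a repressor of the clock loop, was lower, at 8.2, 14.6, 41.2 and 24.3 CPM in Bern against 68.9, 84.2, 54.6 and 65.1 CPM in Crick (-1.62 ± 0.43, edgeR adjusted p = 0.0416). It was not called without Bern_ColPos 1 or 2 or Crick_ColPos 1, 2 or 3 (0.0727 to 0.138), nor with the GC content offset (0.0853). Per1 was at 79.4 to 175 and 18.8 to 88.3 CPM (1.45 ± 0.52, adjusted p = 0.111), and Arntl at 18.7 to 62 and 28.6 to 50.5 CPM (0.02 ± 0.41). None of 17 heat shock genes, 15 genes of the unfolded protein response, 23 nuclear genes of the respiratory chain, 24 ribosomal protein genes or 16 genes of cholesterol synthesis passed in edgeR; 6, 2, 5, 4 and 5 had an unadjusted p under 0.05, and DESeq2 called 2, 2, 1, 0 and 2. None of the 13 mitochondrially encoded protein genes did either (median 0.25), whereas the mitochondrial 16S rRNA mt-Rnr2, singled out after its values were seen, was at 2203, 2391, 1886 and 2954 CPM against 8388, 7812, 5766 and 10160 CPM (-1.77 ± 0.48, adjusted p = 0.0446). That call was lost without Bern_ColPos 1, 2 or 3 or any 1 Crick library (0.0651 to 0.12), and mt-Rnr1 did not move with it (-0.06, adjusted p = 0.965). The 13 protein genes summed to 898 to 1355 CPM in Bern and 701 to 1206 CPM in Crick. The lower mitochondrial share of counts in Bern was thus mostly that of mt-Rnr2.

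The direction of a gene's difference went with the GC content of its transcript. In the quartile of lowest GC content 19 genes were higher in Bern and 98 lower, and in the quartile of highest GC content 187 were higher and 12 lower. The median log2 fold change ran from -0.41 through -0.19 and 0.17 to 0.65 over the 4 quartiles. In each library the highest minus the lowest quartile differed by 1.04, 0.67, 0.64 and -0.21 in Bern and by -0.99, -1.25, -0.27 and 0.51 in Crick (log2; exact permutation p = 0.0571). Bern 4 and Crick 4 thus ran against their groups. With an offset for GC content in each library, an alternative chosen after seeing the data, 490 of 17362 genes (2.82%) were called, 335 higher and 155 lower, and 355 of these were among the 538. The calls then spread over the quartiles, 74 higher and 44 lower in the lowest and 94 and 28 in the highest. Egr1, Nab2, Gfra2, Ret, Penk, Snap25, Syn1 and Malat1 passed with the offset, and Junb, Tbx3, Grin1, Ece1, Hcn3, Nr1d2, Peg13, Card9, Ier3, Plpp2, Lgr5, Erc2 and mt-Rnr2 did not (0.0509 to 0.295). Small intestinal neurons and colon non-neuronal nuclei showed a weaker run, with medians of -0.04 and 0.00 in the lowest and 0.18 and 0.22 in the highest quartile.

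**Figure D4:**
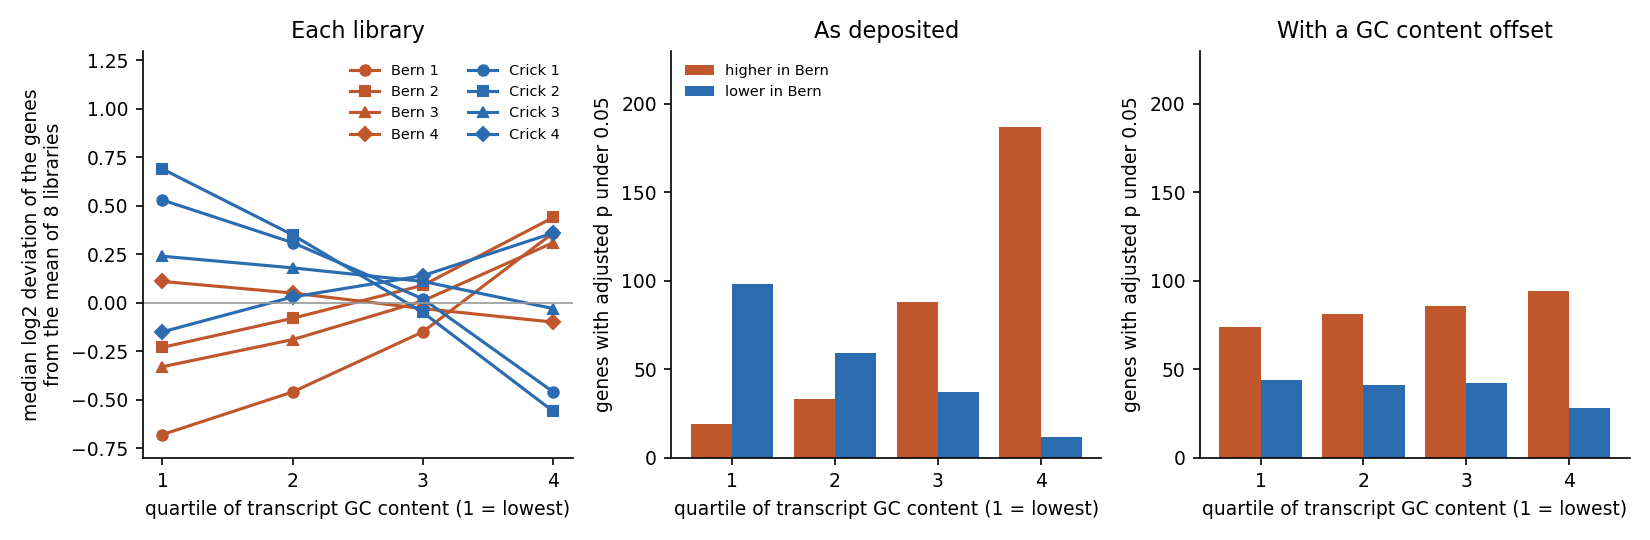
Left, median log2 deviation from the mean of the 8 libraries in each quartile of transcript GC content, 1 line per library. Middle and right, genes higher (orange) and lower (blue) in Bern in each quartile, as deposited (19 and 98 in the lowest, 187 and 12 in the highest quartile) and with a GC content offset (74 and 44, 94 and 28).

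The same facilities were compared in other libraries of the series. Xist went by library number in each facility, so same-numbered libraries may share mice, and the main tests did not pair them. In small intestinal neurons, fitted together with the colon neurons, 119 genes (0.683%) differed, 99 higher (0.568%) and 20 lower (0.115%) in Bern. Of these, 66 were called in colon neurons in the same direction, which is 12.3% of the colon calls and 55.5% of the small intestinal calls, and 0 in the opposite direction. Of the 538 colon calls, 491 (91.3%) had the same sign. The 330 higher genes had a median of 1.79 in the colon and 1.1 in the small intestine, and the 208 lower genes -2.28 and -0.57; they were chosen by their colon call, which favours large colon values, so these medians are a description. The test of the difference between both segments called 1 gene of 17419 (0.00574%), and 1134 passed an unadjusted p under 0.05. Egr1 differed by 4.74 in the small intestine (edgeR adjusted p = 0.0029), and the difference between segments was -0.59 (adjusted p = 0.919). Malat1 differed by -0.40 there (adjusted p = 0.338, difference between segments -0.87 with adjusted p = 0.475).

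In colon non-neuronal nuclei 564 of 19159 genes (2.94%) differed, 408 higher (2.13%) and 156 lower (0.814%) in Bern. Of the 538 colon neuronal calls, 527 were tested there and 120 were shared in the same direction (22.3% of the 538, and 21.3% of the non-neuronal calls), and 2 were opposite. Neuronal genes were among the higher ones: 9 of 20 pan-neuronal markers passed, led by Snap25 (2.91, edgeR adjusted p = 6.87e-05). These markers summed to 1274 to 2443 CPM in Bern non-neuronal nuclei and to 345 to 691 CPM in Crick non-neuronal nuclei, scaled among the colon libraries. The part of this neuronal RNA in the shared calls was not tested. The test of the difference between both sorts called 4 genes (0.0209%), 1 with a larger (0.00522%) and 3 with a smaller log2 difference in neurons (0.0157%), and 2053 passed an unadjusted p under 0.05. Egr1 differed by 2.50 in non-neuronal nuclei (adjusted p = 0.0539, difference between sorts 1.67 with adjusted p = 0.547), and Malat1 by -0.30 (adjusted p = 0.468, difference between sorts -0.96 with adjusted p = 0.198).

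Calls in the same direction in all 3 comparisons numbered 43, of which 29 were protein coding. They included Gfra2, Syn1, Snap25, Csf2ra, Capns1, Rab7, Tpp1 and Swi5, and, picked from this set after their values were seen, Cadm3, Negr1, L1cam and Ahnak. Of the 24 listed synaptic adhesion genes, to which these do not belong, none was higher in colon neurons and 1, Cdh9, was lower (median 0.05). Over all genes tested in colon neurons, 1.89% were higher and 1.19% lower. Cadm3, a synaptic adhesion protein, was at 1345, 850, 1176 and 1131 CPM in Bern and 473, 422, 479 and 416 CPM in Crick colon neurons (1.33, edgeR adjusted p = 0.00725). Negr1, an adhesion protein of neurite growth, was at 996, 796, 901 and 822 CPM against 381, 401, 290 and 327 CPM (1.33, adjusted p = 0.00858). L1cam, the axonal adhesion molecule, was at 1688, 1213, 1162 and 968 CPM against 402, 290, 557 and 625 CPM (1.42, adjusted p = 0.00926), and without Crick_ColPos 2 it was not called (0.0557). Ahnak, a large scaffold protein, was lower in all 3 (214, 299, 282 and 256 CPM against 572, 442, 492 and 666 CPM, -1.05, adjusted p = 0.0256), and was not called without Bern_ColPos 1 or Crick_ColPos 1, 2 or 3 (0.0547 to 0.0982).

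**Figure D5:**
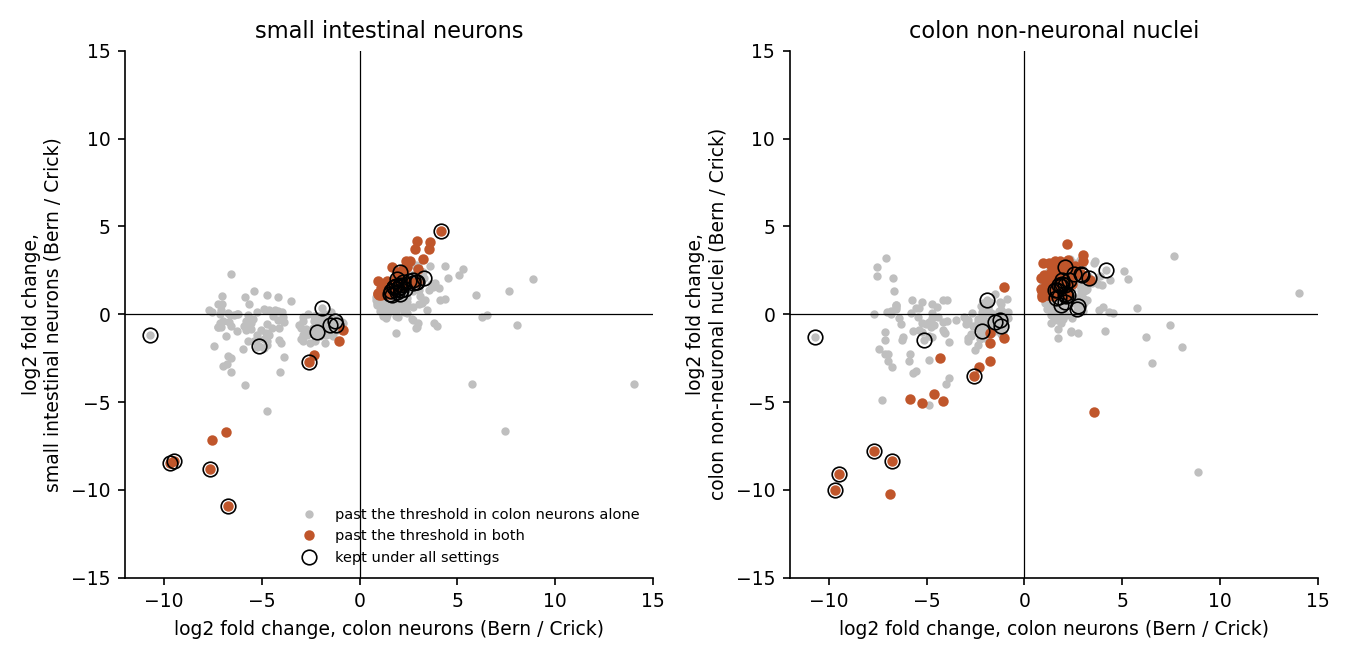
Log2 fold change (Bern over Crick) of the genes called in colon neurons, on the x axis, against small intestinal neurons (left) and colon non-neuronal nuclei (right). Orange points were called in both, and circles mark the 35 genes called under all settings. Most orange points lie in the upper right and lower left, 66 on the left panel, and on the right panel 120 with 2 in the opposite direction.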

How the data were processed

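Nuclear RNA was made into cDNA and libraries with NuGEN Ovation kits and sequenced as single reads, per the labels' protocols. The deposited values are expected counts, 1 table over 32 libraries and 51912 gene identifiers. The submitters' processing notes name STAR 2.5.2, RSEM 1.3.0, DESeq2 1.10.1 and build GRCm38. Their order and settings, and whether counting used strand, are not given in the sources used here. The values were rounded to whole counts. Identifiers were joined to GENCODE M21 (51719 matched, 193 did not) for names, positions, GC content and length.

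The 16 neuronal libraries were fitted together with edgeR 4.0.16 in R 4.3.3 (TMM factors, filterByExpr, quasi-likelihood test, contrast Bern minus Crick in colon). P-values were adjusted by Benjamini-Hochberg over all genes tested, with a threshold of 0.05. Colon non-neuronal nuclei were tested in a second fit of the 16 colon libraries. CPM are counts scaled to TMM-adjusted library totals within each fit. Fold changes are log2, Bern over Crick, ± SE. The test was run on simulated data of 16952 genes, where 2 unchanged genes were called.

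Named genes were the 12 with the largest fold change and the 8 with the lowest adjusted p per direction, out of genes that were called, did not overlap and had a mean of at least 5 CPM in the higher group, leaving out predicted genes (78) and markers of other cell types (1), of 417 that met the other conditions. Members of 42 lists past the threshold could also be named. The comparison, the rule and the lists were chosen with earlier results of these data known. Lists are given by counts and medians, with no test. Library measures were compared by exact permutation. Alternatives were DESeq2 1.42.0, limma-voom (limma 3.58.1), other scaling, filters and sets of libraries, thinning, the replicate block and GC content or length offsets.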

Additional observations from a re-analysis of the deposited data

Results flagged for a closer look

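Of 192 groups of 4 values examined (library measures and the genes named or listed), 23 held 1 library whose gap to the nearest other, divided by the range, was above Dixon's critical value at the 95% level. Chance gives about 1 in 20 where values are normally distributed, which CPM need not be. Many of these genes were named for a large fold difference, so the number is a description. Bern_ColPos 1 was the outlying library for Ier3 (99.1 CPM, the others 7.78 to 15.4), Plpp2 (160, others 12.1 to 26.5), Lemd2 (109, others 17 to 24.8), Myh11 (489, others 159 to 213), Snap25 (793, others 1452 to 1494) and Ntng1 (77.3, others 409 to 429). Bern_ColPos 3 was outlying for Foxp4 (55.9 CPM, others 2.92 to 6.59), Card9 (56.2, others 5.8 to 11.3), Cyfip2 (198, others 96.4 to 104) and Crb1 (31.9, others 0). Bern_ColPos 2 was outlying for Ccdc112 (11.4 CPM, others 3.51 to 4.75) and Olfr78 (31.4, others 67 to 72.2), and Bern_ColPos 4 for Syn1 (145, others 366 to 394), Ide (145, others 51.9 to 63.6) and the share of counts from Malat1 (3.28%, others 2.58% to 2.68%). Crick_ColPos 4 was outlying for Omp (26.5 CPM, others 1.45 to 3.1), Swap70 (18.2, others 7.39 to 8.41), Rgma (20.2, others 1.44 to 2.38), Hspa8 (282, others 232 to 238), Gpr20 (11.4, others 0 to 0.961) and Nnt (12.4, others 7.39 to 8.17). Crick_ColPos 3 was outlying for Card9 (3.1 CPM, others 0.858 to 1.24) and Nlrx1 (21, others 8.26 to 10.2).

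The difference between the facilities was not the same in both segments for 1 identifier without a symbol in the annotation, ENSMUSG00000092267. It was at 949, 216, 232 and 497 CPM in Bern colon neurons and at 0 in all Crick colon neurons, at least 3187-fold higher, and the fitted difference between segments was 18 on the log2 scale (edgeR adjusted p = 0.00716), a value that depends on the prior count and is no bound. Between neuronal and non-neuronal nuclei of the colon the facility difference was not the same for Kcnh4, a potassium channel (9.13), Jph2, a junction protein of muscle (-5.62), Erc2, an active zone protein (-2.59), and the non-coding AY036118 (-14.33), each with an edgeR adjusted p of 0.0478. The fitted values of 3 of these are no bounds either: Kcnh4 was at 0 in all Bern non-neuronal libraries (0.811 to 1.82 CPM in Crick), Jph2 was at 0 to 0.506 CPM in Bern neurons, and AY036118 was at 0 to 0.24 CPM in Crick non-neuronal nuclei (4229 to 8209 CPM in Bern). Erc2 was lower in Bern in neurons (156, 225, 271 and 334 CPM against 599, 543, 480 and 438 CPM) and higher in non-neuronal nuclei (1.54, edgeR adjusted p = 0.00911). Its call in neurons was lost without Bern_ColPos 1, 2 or 3 or Crick_ColPos 1, 2 or 3 (0.0593 to 0.145), with the GC content offset (0.0629) and with the replicate block (0.0723).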

How the results depend on the processing

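Of the 538 calls, 1 changed direction under any of the 28 alternatives (4932431P20Rik, -2.61 without Bern_ColPos 1). List medians near 0 did turn. That of the cholinergic and tachykinin genes, 0.21, was below 0 with both offsets for GC content (down to -0.18). The median of all genes, 0.02, was below 0 in 8 alternatives (-0.26 to 0.08), and those of axon guidance (16), cholesterol synthesis (11), the respiratory chain (10), microbial sensing (5, down to -0.51), sodium, calcium and HCN channels (5), transmitter receptors (4), metabolite receptors (4), heat shock (4), clock (3), synaptic adhesion (3), potassium channel (2), cytoskeletal (2, down to -0.21), smooth muscle (2, -0.06 without Bern_ColPos 1) and ribosomal protein genes (1) took the other sign in the number of alternatives given. The medians of immediate early (0.75 to 1.34), RET and endothelin (0.35 to 0.83), enteric transcription factor (0.45 to 0.75) and pan-neuronal genes (0.34 to 0.49) were above 0 in all 28. For colon neurons, calls numbered 1034 without the filter on low counts, 1683 with DESeq2, 164 with all 32 libraries in 1 fit and 119 with the 8 libraries alone, and left-out libraries gave 59 to 1149. With the replicate block 194 genes were called, 193 of them among the 538, and Bnc2, Ece1, Erc2, Foxp4, Gpr20, Ier3, Junb, Lemd2, Lgr5, Nr1d2, Peg13, Plpp2, Ret, Snap25, Tbx3 and mt-Rnr2 were not (edgeR adjusted p of 0.0534 to 0.145); the numbers pair no samples in the labels, and same-numbered libraries deviated with correlations of -0.09, -0.01, 0.01 and -0.16. The median of all genes was -0.26 with limma-voom and -0.11 with the block. In small intestinal neurons the counts were 328 without the filter, 397 with DESeq2, 43 with all libraries, 43 with the block, and 295 and 305 with the GC content and the GC content and length offsets (11 to 175 without 1 library). In non-neuronal nuclei they were 1035, 1264 and 330 with no filter, DESeq2 and the block, 275 with the compared libraries alone and 99 without the libraries that stand apart (164 to 861 without 1 library). The difference between segments gave 93, 35 and 2 calls with no filter, DESeq2 and limma-voom, 0 with both offsets, which leave out the 1 gene called, and 4 without the libraries that stand apart (0 to 3 without 1 library). The difference between sorts gave 360, 198, 1 and 1 with no filter, DESeq2, all libraries and both offsets together, 0 with thinning, 0 without the libraries that stand apart and 5 with a replicate block within each facility (0 to 5 without 1 library). Otherwise the causes were not tested. The offsets and leaving out the libraries that stand apart (Bern_ColPos 1, Crick_SiPos 2, Bern_ColNeg 1 and 2, Crick_ColNeg 3) were chosen after seeing the data. With limma-voom Ano1, Cdh9, Foxp4, Gpr20, Ier3, Junb, Lgr5, Plpp2 and mt-Rnr2 were not called (0.0718 to 0.275). Calls of Bnc2, Erc2, Tbx3, Ece1, Nr1d2, Peg13, Ier3, Plpp2, Ano1, Gpr20, Lgr5 and mt-Rnr2 were also lost without 1 or more small intestinal libraries, with edgeR adjusted p of 0.0502 to 0.0668. Genes at few counts are not resolved at this depth.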
